A study of Mus musculus with 6 samples.

Results

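The 10 genes described here encode the subunits of microtubules and a protein that binds the free subunits: the alpha tubulins Tuba1a, Tuba1b, Tuba1c and Tuba4a, the beta tubulins Tubb5, Tubb4b, Tubb2a and Tubb6, the gamma tubulin Tubg1, and stathmin, Stmn1. They were picked by gene symbol from the 14788 rows of the count table, with their values in these libraries already known, so their levels and differences are given as a description. Where a call from the test over all genes is given for one of them, it supports nothing, since the choice used the same contrast. The series profiled RNA from splenic type-2 conventional dendritic cells (cDC2s) of C57BL/6 mice, which mainly prime CD4 T cells. It holds 6 libraries, 3 of wild-type (WT) genotype and 3 of genotype Arhgef1-/-, called the knockout here. The Arhgef1 protein loads a small GTPase that controls actin contractility with GTP. The labels give no age, no sex, no deleted part of Arhgef1 and no statement that each library came from a separate animal, so the spread between libraries may be technical.

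Alpha and beta tubulin form a dimer that is the building block of microtubules, the hollow polymers that carry cargo, place organelles and build the mitotic spindle. Mammals have several genes (isotypes) for each, whose proteins are nearly alike apart from the acidic tail that faces outward on the microtubule. Gamma tubulin sits in a ring complex that starts new microtubules. Stathmin holds free dimers and promotes disassembly, and phosphorylation by mitotic and other kinases switches it off. Cells also limit tubulin synthesis by degrading tubulin mRNA when free dimers accumulate, a process in which the factor TTC5 reads the first residues of the nascent chain. In dendritic cells microtubules serve migration, vesicle traffic and antigen presentation, and in dividing cells they form the spindle.

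Total counts ran from 8408325 to 11714365 per library. All WT libraries came from lane 1 and all knockout libraries from lane 2 of differently named runs, so lane and genotype cannot be told apart. Arhgef1 itself had counts of 3000, 2754 and 2088 in WT and 987, 1238 and 1694 in the knockout, and its normalised level in the knockout was 0.455 of that in WT. The cDC2 markers H2-Ab1, Itgax and Sirpa stood at 8393, 1406 and 866 counts per 1000000 counts of the library (CPM) in WT and at 6831, 1262 and 695 CPM in the knockout. Here and further on, a gene rose or fell in the knockout if its adjusted p was under 0.05 in edgeR's quasi-likelihood test over all 11504 genes tested, of which 9.67% did. Of 9 cDC2 markers 4 fell (H2-Ab1, Sirpa, Cd4 and Clec4a4) and 0 rose, the median log2 fold change was -0.30, and their summed counts went from 1.14% to 1.28% of a WT library to 0.982% to 1.04% of a knockout library. Of 18 macrophage markers 14 fell and 0 rose, and their summed counts were 0.0809% to 0.124% of a WT library and 0.0301% to 0.0479% of a knockout library. All of them had counts, none being at 0 in all libraries. Of 40 cell cycle genes 36 rose, and their sum went from 0.268% to 0.312% in WT to 0.555% to 0.638% in the knockout. Of the markers of B cells (6 tested), T cells (3), neutrophils (1), erythroid cells (2), platelets (1) and cDC1s (5), 0 passed edgeR's test, 0 had an unadjusted p under 0.05, and DESeq2 and limma-voom called 0. No list of these summed to more than 126 CPM in a library.

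Because near-identical copies decide how well reads can be assigned, the sequences come first. The ends of the coding sequences of 3 beta tubulins are shown because the tails are where isotypes differ most. Each line gives the last 60 coding bases, stop codon included, from GENCODE vM21 transcripts. Capitals mark bases that differ from Tubb5, or have no counterpart in it, in an alignment of the whole coding sequences. The coding sequences of Tubb4b and Tubb2a (1338 bases each) are longer than that of Tubb5 (1335 bases), so the lines do not match base for base by position.
Tubb5: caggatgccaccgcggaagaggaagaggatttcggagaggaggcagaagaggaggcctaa
Tubb4b: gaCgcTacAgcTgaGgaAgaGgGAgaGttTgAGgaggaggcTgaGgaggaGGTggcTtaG
Tubb2a: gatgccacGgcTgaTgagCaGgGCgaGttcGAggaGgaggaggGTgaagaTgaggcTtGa

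Of these 60 bases, Tubb4b had 17 substituted against Tubb5 and 3 inserted, and Tubb2a had 13 substituted and 3 inserted. Over the whole coding sequence Tuba1b was 98.3% identical to Tuba1a, 97.9% to Tuba1c and 85.0% to Tuba4a. The beta isotypes were farther apart, with Tubb5 82.2% identical to Tubb4b, 84.6% to Tubb2a and 80.2% to Tubb6. Tuba1b and Tubb5, of different classes, were 55.8% identical. The start of the coding sequence, which encodes the residues that TTC5 reads, was atgcgtgagtgc in Tuba1a, Tuba1b and Tuba1c and atgcgcgagtgc in Tuba4a. In the beta class it was atgagggaaatc in Tubb5, atgagggagatc in Tubb4b and atgcgcgagatc in Tubb2a.

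Apart from the alpha cluster, the 9 genes placed here lie on different chromosomes. On mm10 (GENCODE vM21), Tuba1b (chr15:98931425-98934565, minus strand), Tuba1a (chr15:98949837-98953703, minus strand) and Tuba1c (chr15:99029891-99038110, plus strand) are neighbours on chromosome 15, each with 4 exons in its longest transcript. Tubb5 is at chr17:35833921-35838306 (minus strand, 4 exons), Tubb4b at chr2:25222160-25224702 (minus strand, 4 exons) and Tubb2a at chr13:34074274-34078007 (minus strand, 4 exons). Tuba4a is at chr1:75214228-75219865 (minus strand, 4 exons), Tubg1 at chr11:101119938-101126419 (plus strand, 11 exons) and Stmn1 at chr4:134468320-134473843 (plus strand, 5 exons). These 9 genes are annotated as protein coding, and the position of Tubb6 is not given here.

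The share of each longest transcript that occurs, base for base, in some other annotated gene was counted in stretches of 50 bases (50-mers). Tuba1b shared 83.1% of its 50-mers with other genes, Tuba1a 75.5%, Tuba1c 61.0%, Tubb4b 55.5%, Tubb2a 49.6%, Tuba4a 48.8%, Stmn1 36.5% and Tubg1 14.1%. Tubb5 shared 0.115% and Tubb6 0.0%. Tuba1b shared sequence with 20 other genes, among them Tuba1c (59.3% of its 50-mers) and Tuba1a (44.9%). Most of what Tubb2a shared was with Tubb2b (45.6%), and most of what Tubb4b shared was with its pseudogene Tubb4b-ps1 (43.6%). For Tuba4a the partner was Stk16 (47.7%), a neighbouring gene that the longest Tuba4a transcript overlaps. Stmn1 shared 34.7% with Gm11223. The sources used here do not give the read length or how reads that match several genes were counted. If such reads were dropped, the counts of Tuba1a, Tuba1b and Tuba1c are too low against those of Tubb5. The comparison of 1 gene between libraries then keeps the same shared part on both sides, provided all libraries had the same read length and counting. If such reads were counted instead, the count of 1 gene may include reads of another.

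**Figure D1:**
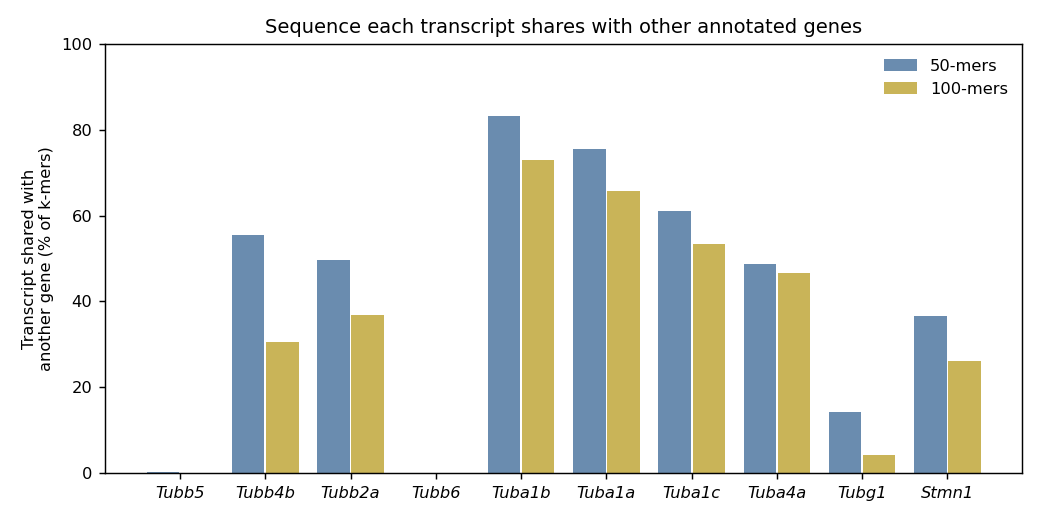
Share of the 50-mers (blue) and 100-mers (yellow) of the longest transcript of each gene, in percent, that also occur in another annotated gene on either strand. Tubb5 and Tubb6 have almost none, and Tuba1b has the most, 83.1% of its 50-mers and 73.0% of its 100-mers.

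Beta tubulin in these cells was mostly Tubb5, the isotype found in most dividing tissues. In WT it had 7018, 5394 and 5722 counts, and in the knockout 8855, 11745 and 13646. Normalised, that is 672, 621 and 675 CPM in WT and 1030, 1210 and 1160 CPM in the knockout. All knockout libraries lay above all WT libraries. The knockout level was 1.73 times the WT level, a log2 fold change of 0.79 ± 0.08 (SE, n = 3 each). It was the best-measured gene of the set, since its counts were the highest and almost none of its sequence is shared.

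Tubb4b, another widely expressed beta isotype, was lower in level. It had 11.6, 11.5 and 11.9 CPM in WT and 25.0, 25.5 and 14.6 CPM in the knockout, a log2 fold change of 0.89 ± 0.25. The WT libraries were almost equal, and knockout replicate 3 lay nearer to them than to the other knockout libraries. Tubb2a, an isotype best known from neurons, had 12.5, 17.8 and 13.6 CPM in WT and 10.2, 16.1 and 11.3 CPM in the knockout (-0.22 ± 0.26). Tubb6, a more divergent beta isotype, had 22.1, 14.2 and 12.6 CPM in WT and 17.2, 20.8 and 12.9 CPM in the knockout (0.05 ± 0.26). The groups overlapped in both genes. The sign for Tubb6 turned when WT replicate 2 (-0.04), WT replicate 3 (-0.10) or knockout replicate 2 (-0.13) was left out.

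Among the alpha tubulins Tuba1b had the highest level. Its counts were 946, 655 and 846 in WT and 1186, 1569 and 1674 in the knockout, or 90.6, 75.4 and 99.8 CPM against 138, 162 and 143 CPM. The groups did not overlap, and the log2 fold change was 0.74 ± 0.12, close to that of Tubb5. Tuba1a, best known from developing neurons, had 43.6, 43.3 and 35.7 CPM in WT and 48.7, 51.2 and 44.7 CPM in the knockout, so that the groups were separated by a small gap (0.24 ± 0.15). Tuba1c had 21.9, 19.8 and 27.4 CPM against 29.3, 36.0 and 25.6 CPM (0.40 ± 0.20), and the groups overlapped. Tuba4a, the isotype whose gene does not encode the final tyrosine of the other alpha tails, had 26.2, 15.8 and 21.7 CPM against 20.6, 16.1 and 16.2 CPM (-0.27 ± 0.23), again with overlap. The differences in fold change between the members of the chromosome 15 cluster were not tested, and reads of Tuba1a, Tuba1b and Tuba1c that fall in their shared sequence cannot be told apart.

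Gamma tubulin and stathmin were measured at low counts. So were Tubb4b (100 to 247 counts per library), Tubb2a (88 to 156), Tubb6 (107 to 231) and Tuba4a (137 to 274). Tubg1, which encodes the gamma tubulin of the ring complex, had counts of 131, 125 and 125 in WT and 175, 211 and 387 in the knockout. In CPM these were 12.5, 14.4 and 14.7 against 20.4, 21.8 and 33.0, a log2 fold change of 0.86 ± 0.23. Knockout replicate 3 was the highest library by a wide margin, and without it the value was 0.61. Stmn1 had counts of only 43, 31 and 35 in WT and 41, 71 and 71 in the knockout, or 4.12, 3.57 and 4.13 CPM against 4.77, 7.34 and 6.05 CPM (0.62 ± 0.39). Knockout replicate 1 was nearly at the WT level.

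**Figure D2:**
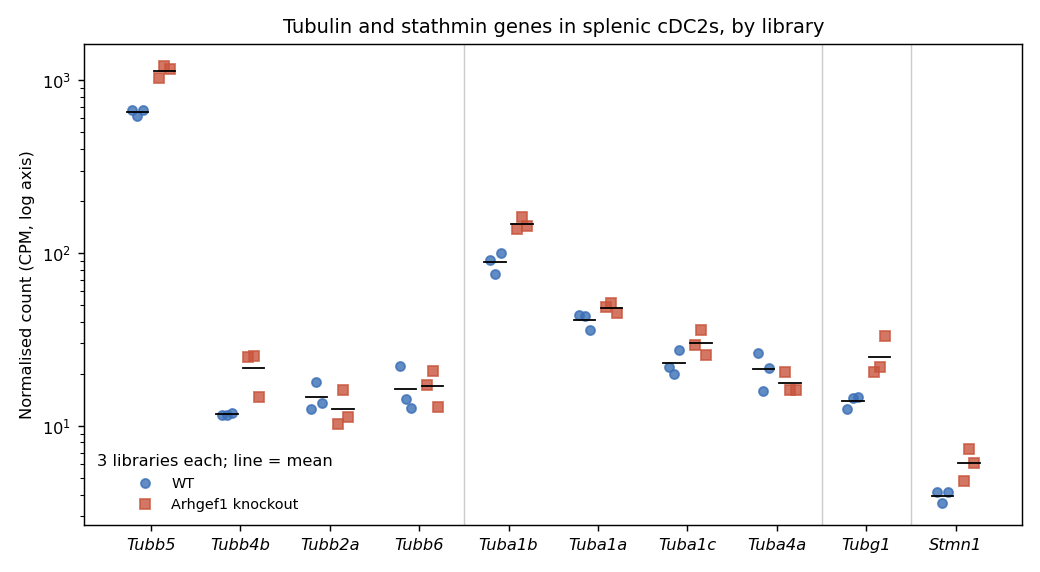
Normalised counts (CPM, log axis) of the 10 genes in each library, circles for WT, squares for the knockout and a line at each mean. Tubb5 lies between 621 and 1210 CPM and Stmn1 between 3.57 and 7.34 CPM, and in 6 of the 10 genes the knockout libraries lie above all WT libraries.

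All 10 genes passed the filter on low counts. With edgeR's quasi-likelihood test over 11504 genes, 4 of the 10 were called higher at an adjusted p under 0.05, where 5.09% of all genes tested were called higher, and 0 were called lower, against 4.58%. Those called were Tubb5, Tuba1b, Tubb4b and Tubg1. In 6 of the 10 the knockout values lay above all WT values, a pattern found in 13.7% of all genes tested, and in 0 they lay below, found in 13.5%. Since the 10 were chosen with this contrast known, nothing is read from these counts. The median log2 fold change of the 10 was 0.51, and that of all genes tested was 0.

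Tubb5 and Tuba1b were called in all 14 alternative analyses, with ranges of 0.74 to 0.86 and 0.63 to 0.83. Tubb4b lost its call in 5 of the 6 analyses that left out 1 library (0.75 to 0.91 in those 5), the exception being the one without knockout replicate 3, and in limma-voom (0.81). Tubg1 was not called when WT replicate 1 (0.79), WT replicate 2 (0.88), WT replicate 3 (0.90) or knockout replicate 3 (0.61) was left out.

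**Figure D3:**
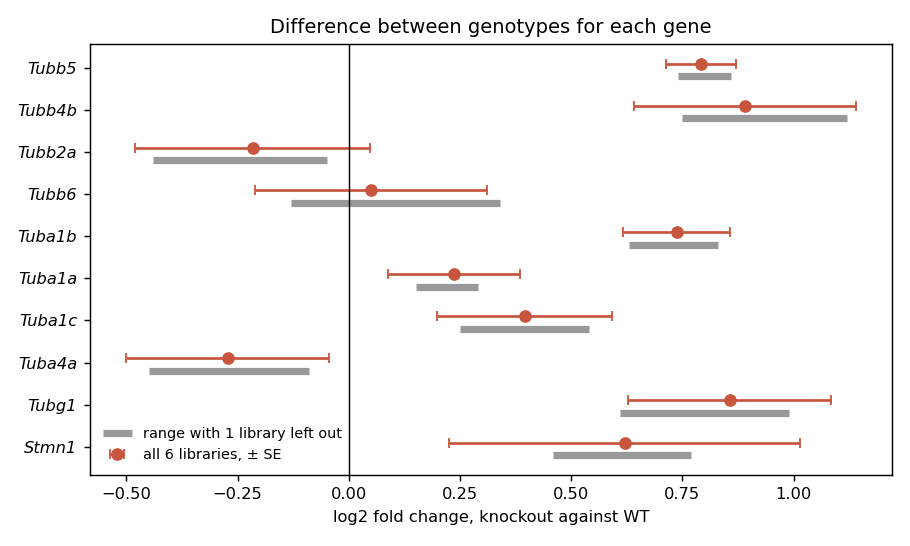
Log2 fold change of each gene in the knockout against WT, with its SE (red) and the range over the 6 fits that each left out 1 library (grey). Tubb5 and Tuba1b stay between 0.63 and 0.86, and the range of Tubb6 crosses 0.

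To compare isotypes with each other, counts were divided by the length of the longest transcript. On this scale, in CPM per kilobase (kb), Tubb5 stood at 247 ± 11.5 in WT (SD, n = 3) and 429 ± 35.1 in the knockout. Tuba1b followed at 50.8 ± 7.07 and 84.7 ± 7.18, then Tuba1a at 22.6 ± 2.46 and 26.7 ± 1.78, and Tuba1c at 11.6 ± 1.97 and 15.3 ± 2.63. In WT the next were Tubb6 (9.26 ± 2.90), Tubb2a (9.07 ± 1.77), Tubg1 (7.70 ± 0.655), Tuba4a (7.47 ± 1.85) and Tubb4b (7.29 ± 0.135), which did not differ from each other beyond their spread. Stmn1 was lowest, at 3.71 ± 0.302 and 5.71 ± 1.20. In the knockout the means of Tubg1 (13.9 ± 3.85) and Tubb4b (13.6 ± 3.86) were nearer to Tuba1c than to Tubb2a (7.81 ± 1.93) and Tuba4a (6.22 ± 0.911). Knockout replicate 3 stood apart in both, at 18.3 for Tubg1 and 9.13 for Tubb4b. The genes differ in how much sequence they share with others, so this order of genes may change with the length used.

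Tubb5 made up 90.2%, 89.9% and 91.7% of the 4 beta isotypes in WT and 92.4%, 92.4% and 94.9% in the knockout, per kb. The shares of Tubb2a (3.34% ± 0.798 in WT and 1.68% ± 0.290 in the knockout) and Tubb6 (3.38% ± 0.978 and 2.10% ± 0.447) were lower in every knockout library than in any WT library, while their own levels overlapped. In the alpha class Tuba1b took 53.9%, 52.2% and 58.1% in WT and 61.8%, 64.1% and 65.4% in the knockout. Tuba4a took 8.01% ± 1.45 in WT and 4.71% ± 0.884 in the knockout, with no overlap, and the shares of Tuba1a (24.7% ± 4.44 and 20.1% ± 0.808) and Tuba1c (12.5% ± 1.33 and 11.4% ± 1.10) overlapped. These shares come from the same counts as the fold changes and add no independent evidence.

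Beta tubulin exceeded alpha tubulin 2.96 ± 0.169 fold in WT and 3.46 ± 0.210 fold in the knockout when counts were divided by the whole transcript length. When they were divided by the number of 50-mers that no other gene shares, the ratio was 0.665 ± 0.0458 in WT and 0.729 ± 0.0280 in the knockout. With 100-mers it was 0.949 ± 0.0604 and 1.06 ± 0.0514. Of the lengths used, only unshared 50-mers gave overlapping genotypes, with WT replicate 2 at 0.715 and knockout replicate 1 at 0.704. Which class is higher thus changed with the length used, and the files do not say which length fits the counting. Tubb5 remained the leading beta isotype on the 50-mer scale (84.8% ± 1.38 in WT and 88.4% ± 2.44 in the knockout), and Tuba1b the leading alpha isotype (68.5% ± 3.30 and 75.7% ± 1.34).

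**Figure D4:**
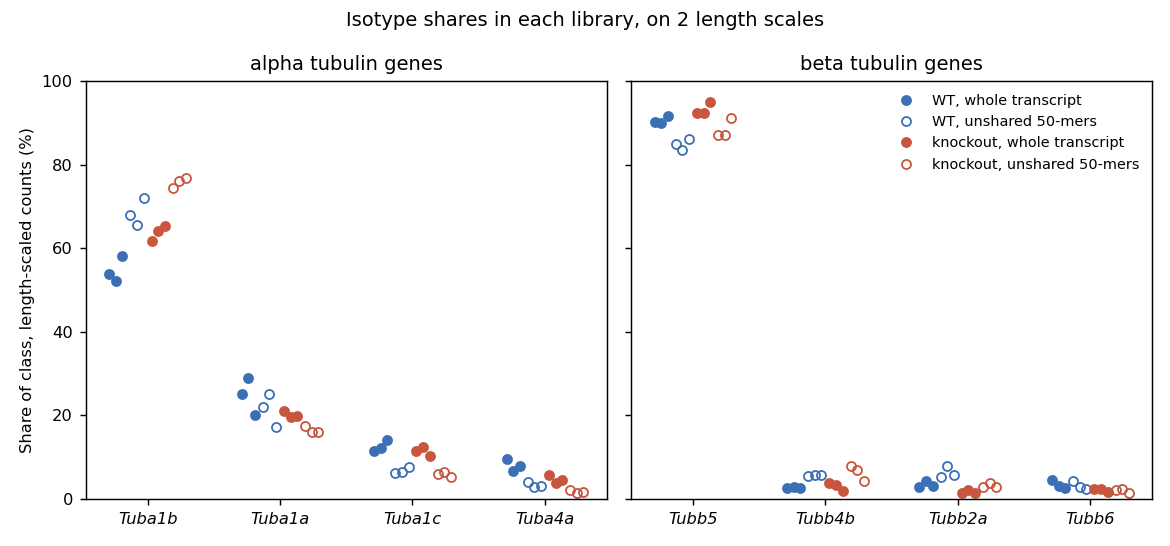
Share of each isotype in its class, in percent, for every library, from counts divided by the whole transcript length (filled) or by the number of 50-mers found in no other gene (open). Tuba1b and Tubb5 lead their classes on both scales, with Tuba1b between 52.2% and 76.9% and Tubb5 between 83.4% and 94.9%.

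The summed alpha isotypes went from 182, 154 and 185 CPM in WT to 237, 266 and 229 CPM in the knockout, and the beta isotypes from 718, 665 and 713 CPM to 1083, 1277 and 1202 CPM. In the same libraries the 40 cell cycle genes summed to 3200, 2680 and 2980 CPM in WT and 5450, 6320 and 5780 CPM in the knockout. The knockout to WT ratio was 1.40 for alpha tubulin, 1.70 for beta tubulin and 1.98 for the cell cycle genes. For summed beta tubulin the order of the libraries within each genotype was that of the cell cycle genes. WT replicate 1 was highest and WT replicate 2 lowest, and knockout replicate 2 was highest and knockout replicate 1 lowest. The order differed for alpha tubulin, which was highest in WT replicate 3 among WT and lowest in knockout replicate 3 among the knockout libraries. Tubb5 alone was also highest in WT replicate 3 among WT (675 CPM, against 672 CPM in WT replicate 1). The macrophage markers summed to 1270, 964 and 815 CPM in WT and 470, 298 and 310 CPM in the knockout. The part of either cell population in the tubulin differences was not tested, and in bulk RNA more cells of a type and more RNA per cell cannot be told apart.

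For likeness of pattern, genes with predicted-gene names (Gm and a number, or ending in Rik) were left out. Among the remaining 4932 genes whose average log2 CPM was 5 or more, those whose log2 CPM followed Tubb5 most closely over the 6 libraries were Ect2 (r = 0.999), E2f8 (0.996), Rrm1 (0.995), Tpx2 (0.995) and Dnajb11 (0.995). Ect2 encodes a cytokinesis factor, E2f8 is a cell cycle repressor of the E2F family, Rrm1 a subunit of ribonucleotide reductase, Tpx2 a spindle assembly factor and Dnajb11 a chaperone of the endoplasmic reticulum. For Stmn1 they were Atxn10 (0.997), Mast2 (0.995), Tpm4 (0.990), Lpp (0.989) and Vasp (0.987), of which Tpm4 and Vasp encode actin-binding proteins. These correlations describe 6 points that fall into the WT and knockout groups, and they are the highest of 4932 or 4933 candidates. Stmn1 rests on at most 71 counts per library.

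The upstream sequences of Tubb4b and Tubb5, the 2 beta tubulin genes with calls, are shown as examples. This choice used the same contrast, so nothing about the differences between genotypes is read from their motifs. They come from RefSeq (GRCm38.p6), whose promoter table held 7 of the 10 genes (Tuba1a, Tuba1b, Tuba1c, Tuba4a, Tubb5, Tubb4b and Tubb2a). Capitals mark CCAAT, the box bound by NF-Y, and TTTGAA, the core of the cell cycle homology region, on either strand. Tubb4b is chr2:25224703-25224952 (minus strand), up to the base before the start site. Tubb5 is chr17:35838312-35838551 (minus strand), which stops short of the annotated transcript.
Tubb4b: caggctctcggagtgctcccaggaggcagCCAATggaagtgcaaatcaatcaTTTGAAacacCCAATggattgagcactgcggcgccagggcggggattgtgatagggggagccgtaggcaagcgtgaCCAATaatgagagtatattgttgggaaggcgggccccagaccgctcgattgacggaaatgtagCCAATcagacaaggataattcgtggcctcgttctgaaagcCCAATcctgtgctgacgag
Tubb5: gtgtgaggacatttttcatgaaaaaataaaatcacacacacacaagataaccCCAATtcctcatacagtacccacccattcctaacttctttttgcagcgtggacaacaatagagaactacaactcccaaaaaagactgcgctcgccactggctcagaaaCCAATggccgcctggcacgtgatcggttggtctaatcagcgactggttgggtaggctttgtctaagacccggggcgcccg

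Tubb4b held 5 CCAAT matches and 1 TTTGAA match, and Tubb5 held 2 CCAAT matches, at 198 and 90 bases before the start site. In windows of 300 bases (250 before and 50 after the start), CCAAT was present in 4 of the 7 genes and in 37.4% of all 32851 promoters, and TTTGAA in 1 of the 7 and in 17.9%. Tubb4b held both, as did 6.95% of all promoters. The variant TTCGAA (1.56% of all promoters), the E2F-type sites TTTCCCGC or TTTGGCGC (1.56%) and the CArG box of the factor SRF (1.63%) were in 0 of the 7. TGACGTCA, the cyclic AMP response element, was in 1 of the 7, Tubb2a, and in 1.79% of all promoters. All motifs were searched on both strands. The 4 genes with CCAAT were Tubb4b, Tubb5, Tuba1a and Tuba1c, and Tuba1b, with a log2 fold change of 0.74, had none in this window.

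Other microtubule genes were taken from 8 lists of 154 genes, of which 135 were in the table and 123 were tested. In the knockout 19 of the 123 rose, 2 fell and 102 did not pass, or 17.1% called against 9.67% of all genes tested, with a median log2 fold change of 0.14. Of the 123, 5 also belonged to the cell cycle list and all 5 rose. Of the other 118, 14 rose and 2 fell, where 5.09% of all genes tested rose and 4.58% fell. The cell cycle list is not complete: the 14 include the mitotic genes Prc1, Kif18a and Kif18b and the cell cycle kinase gene Cdk2. Of the 123, the number that rose was 12 without WT replicate 1, 11 without WT replicate 2 and 9 without knockout replicate 2. The number that fell was 1 without WT replicate 1, WT replicate 2 or knockout replicate 2, and 4 with upper-quartile factors, with the stricter filter or with DESeq2. In these same libraries 36 of 40 cell cycle genes rose.

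The remaining tubulins were scarce. Of 14 other tubulin and stathmin genes 8 were in the table and 3 were tested, and 0 of the 3 passed with edgeR (0 at an unadjusted p under 0.05, and 0 with DESeq2 or limma-voom). These were the epsilon tubulin gene Tube1 (0.53 ± 0.34, adjusted p = 0.388), the beta isotype gene Tubb4a (0.28 ± 0.36, adjusted p = 0.717) and the delta tubulin gene Tubd1 (-0.08 ± 0.29, adjusted p = 0.912), none above 11.8 CPM on average in WT.

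Of 27 tested genes for microtubule nucleation 5 rose and 0 fell (median 0.25), or 18.5% called against 9.67% of all genes tested. Tpx2 rose from 70.9 ± 6.85 to 130 ± 13.4 CPM (0.88 ± 0.12, adjusted p = 1.34e-04), and the centriole duplication kinase gene Plk4 from 42.0 ± 7.06 to 75.3 ± 8.97 CPM (0.84 ± 0.15, adjusted p = 0.00154). Aurka, the kinase that Tpx2 activates, rose from 13.4 to 25.4 CPM but was not called without WT replicate 1 (0.91), WT replicate 2 (0.73) or knockout replicate 2 (0.89). Ckap5, a microtubule polymerase, rose from 191 to 242 CPM (0.34 ± 0.09) and kept its call in only 1 of the 6 analyses without a library, the one without knockout replicate 1.

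Tubulin folding genes, the cytosolic chaperonin CCT, prefoldin and the tubulin cofactors, had a median of 0.23. In this list 13.6% were called, against 9.67% of all genes tested. Of the 22 tested 0 fell and 3 rose. These were the CCT subunit genes Cct6a (35.0 to 57.4 CPM), Tcp1 (126 to 165 CPM) and Cct5 (146 to 183 CPM). Each lost its call in 4 or 5 of the 6 analyses without 1 library, with values of 0.48 to 0.72 for Cct6a, 0.31 to 0.42 for Tcp1 and 0.26 to 0.37 for Cct5. The call of Cct5 was also lost with upper-quartile factors (0.30) and with the replicate block (0.33).

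In the list on tubulin mRNA autoregulation, Scaper, whose protein links TTC5 to the CCR4-NOT deadenylase, fell from 184 ± 5.80 to 132 ± 9.12 CPM (-0.48 ± 0.10, adjusted p = 0.00394), and 4 of 5 genes did not pass. That is 20% called, a single gene, against 9.67% of all genes tested, and the list median was 0.17. Ttc5 went from 87.3 ± 2.42 CPM in WT to 65.3 ± 11.2 CPM (-0.42 ± 0.14, adjusted p = 0.0566 with edgeR). It passed with upper-quartile factors (-0.44), the stricter filter (-0.43), DESeq2 (-0.42), limma-voom (-0.44) and without knockout replicate 1 (-0.53). Over its 14 alternatives the adjusted p ran from 0.029 to 0.212.

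Of 14 tubulin-modifying enzyme genes 1 rose and 0 fell, with a median of 0.02. That is 7.14% called, near the 9.67% of all genes tested. The gene that rose was Ttl, the ligase that restores the final tyrosine of alpha tubulin, from 2.50 ± 0.445 to 9.04 ± 2.80 CPM (1.85 ± 0.40, adjusted p = 0.00562), and it was called in every alternative in which it was fitted. Ttll3 (-0.53), Ttll12 (0.63) and Ttll5 (0.26) did not pass.

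Microtubule-binding proteins had a median of 0, with 3 of 30 higher and 1 lower, or 13.3% called against 9.67% of all genes tested. The mitotic members Prc1, which bundles the central spindle (30.9 ± 2.16 to 62.3 ± 2.33 CPM, 1.01 ± 0.14, adjusted p = 1.75e-04), and Nusap1 (66.1 ± 15.7 to 129 ± 9.05 CPM, 0.96 ± 0.15, adjusted p = 3.45e-04) rose. Ckap2 rose from 18.0 to 32.3 CPM but was not called without WT replicate 1 (0.74) or knockout replicate 2 (0.68). Macf1, a giant crosslinker of actin and microtubules, fell from 3119 to 2549 CPM (-0.29 ± 0.08) but was not called without WT replicate 1 (-0.26), WT replicate 2 (-0.27) or knockout replicate 2 (-0.21).

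Of 9 severing and depolymerising factors 4 rose, 0 fell and all had a positive log2 fold change (median 0.26). That is 44.4% called, against 9.67% of all genes tested. The kinesin-13 gene Kif2c rose from 6.11 ± 1.30 to 18.1 ± 3.24 CPM (1.56 ± 0.28, adjusted p = 0.00132) and the AAA ATPase gene Fignl1 from 25.0 ± 2.29 to 42.3 ± 3.02 CPM (0.76 ± 0.16, adjusted p = 0.00570). Kif18a (0.95) and Kif18b (0.81), kinesins of the mitotic spindle, rose as well and lost their calls without WT replicate 2 (0.91 and 0.64) or knockout replicate 2 (0.81 and 0.68).

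Of 13 kinases known to phosphorylate stathmin 23.1% were called, against 9.67% of all genes tested, with a median of 0.07. In this list 0 fell and 3 rose. All 3 are cell cycle kinases: Aurkb rose from 40.4 ± 7.46 to 89.7 ± 17.7 CPM (1.15 ± 0.17, adjusted p = 1.94e-04), Cdk2 by 0.89 ± 0.19 and Cdk1 by 1.04 ± 0.26. Cdk2 lost its call without knockout replicate 3 (0.68), and Cdk1 when any of WT replicate 2 (0.92), knockout replicate 2 (0.91) and knockout replicate 3 (0.91) was left out.

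**Figure D5:**
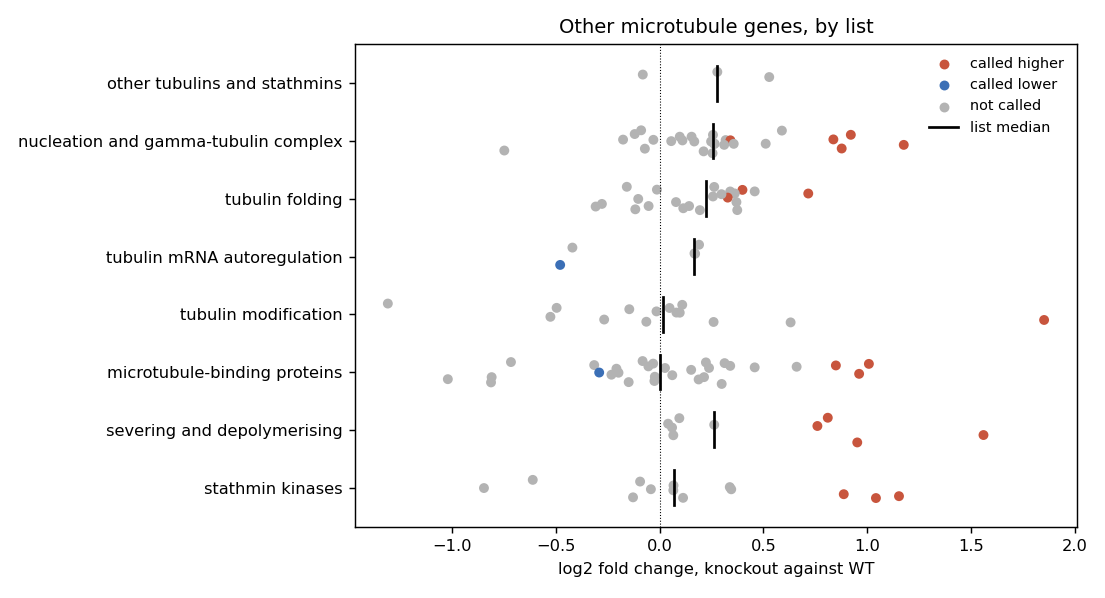
Log2 fold change (knockout against WT) of every tested gene of the 8 microtubule lists, in red where called higher, blue where called lower and grey where not called, with a black line at each list's median. The list medians lie between 0 and 0.28, and 19 genes are called higher and 2 lower.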

How the data were processed

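The authors deposited unnormalized counts, whole numbers for 14788 gene symbols in 6 libraries. Per the submitters' processing notes, the tools were STAR, HTSeq and DESeq2 and the build mm10. The sources used here do not give versions, annotation, strand setting, read length or the handling of reads that match several genes. Groups and replicate numbers came from the sample titles.

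The test was edgeR 4.0.16 (R 4.3.3): filterByExpr (11504 genes kept), TMM factors (0.977 to 1.02), a quasi-likelihood fit with genotype as its term, and Benjamini-Hochberg adjustment over all genes tested, with calls at 0.05. "Rose" and "fell" refer to these calls. Each SE is the log2 fold change over the root of F, and CPM uses TMM-scaled library sizes. The members and lists were chosen with earlier results of these data known. Named genes are the 10 members, Arhgef1, up to 4 genes with the smallest p in each microtubule list, and up to 3 markers per check list. The cDC2 markers that fell are also named, as are the 5 genes most like Tubb5 and Stmn1 in pattern.

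Alternatives were DESeq2 size factors, total counts, upper-quartile factors, no filter, a filter of 5 CPM in 3 libraries, DESeq2 1.42.0, limma-voom 3.58.1, a replicate block and each library left out. Other length scales (coding length and unshared 50-mers or 100-mers) were chosen after seeing the data. Lengths, positions and transcripts came from GENCODE vM21, and promoters from RefSeq. Some items, including 1 gene list, are not reported here.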

Additional observations from a re-analysis of the deposited data

How the results depend on the processing

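Of 587 checks of single genes under alternatives (42 genes), 531 kept direction and side of the threshold, 46 lost the call, 5 gained it and 5 turned. The turns were Tubb6 without WT replicate 2 (-0.04), WT replicate 3 (-0.10) or knockout replicate 2 (-0.13), and Tubd1 without WT replicate 3 (0.13) or knockout replicate 1 (0.10), none of them called in any setting; over all 6 fits without 1 library Tubb6 ran from -0.13 to 0.34 and Tubd1 from -0.26 to 0.13. With 1 library left out, genes higher in the knockout numbered 310 to 583 (586 with all) and genes lower 264 to 489 (527), with fewer samples in each fit. Microtubule list genes numbered 9 to 20 higher (19) and 1 to 3 lower (2); with upper-quartile factors, the stricter filter or DESeq2 4 were lower, and the cause was not tested. The Tuba1b share of alpha tubulin was 54.7% in WT and 63.7% in the knockout per kb, 50.9% and 60.6% from plain counts, 50.8% and 60.5% per coding length, 68.5% and 75.7% per unshared 50-mer and 64.1% and 72.0% per unshared 100-mer. The Tubb5 share of beta tubulin was 93.9% and 95.7% from plain counts and per coding length, 84.8% and 88.4% per unshared 50-mer and 87.6% and 91.0% per unshared 100-mer. The beta to alpha ratio was 4.04 and 4.88 from plain counts, 4.09 and 4.95 per coding length, 0.665 and 0.729 per unshared 50-mer and 0.949 and 1.06 per unshared 100-mer. In this ratio the genotypes overlapped per unshared 50-mer only. The only change in these shares and ratios is the length used. The replicate block gave 496 higher and 449 lower genes. Same-numbered libraries did not deviate together from their group means (r = 0.0382, -0.0326 and -0.0330). With 3 libraries per group, these values cannot tell whether the numbers pair the libraries. No scaling moved the median of all genes by more than 0.033. Of the 10 members, Stmn1 had the fewest counts (31 to 71 per library).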
